A study of Mus musculus with 6 samples.

Results

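Lipid droplets are the stores of neutral fat in a cell, and 10 genes of the droplet and of its triglyceride core are described here in mouse esophageal epithelium with targeted *Klf4*. They are the droplet proteins *Plin2*, *Plin3* and *Hilpda*, the synthesis genes *Gpat4*, *Lpin1*, *Dgat1* and *Dgat2*, and the lipolysis genes *Pnpla2*, *Pnpla3* and *Abhd5*. All 10 had a probe set naming a single gene, out of 19938 genes with such a probe set, and each had 1 probe set, so the rule for choosing between probe sets, the highest mean over the 6 arrays, had nothing to decide. *Gpat4* is called *Agpat6* in older annotation. The genes were chosen by their role and by their differences between mutant and control, seen in an earlier comparison of the same arrays, so their differences are descriptions of these arrays and not independent evidence for the set.

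RNA was taken from the esophageal epithelium of 6 mice aged 3 months on a mixed genetic background, 1 array per animal. The 3 controls carried loxP sites on both copies of *Klf4* (Klf4 loxp/loxp) and no Cre. The 3 mutants were sex-matched littermates with the same floxed gene plus the ED-L2-Cre transgene, which expresses Cre from a promoter active in squamous epithelium. Each genotype had 1 male (replicate 1) and 2 females (replicates 2 and 3). Values are log2 signals per probe set.

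Triglyceride is built in the endoplasmic reticulum by adding fatty acids to a glycerol backbone in steps. A GPAT enzyme adds the first fatty acid, an AGPAT the next, a lipin removes the phosphate, and a DGAT adds the last fatty acid. The product buds into droplets coated by perilipins, and lipases of the patatin-like family release the fatty acids again. In the epidermis, another stratified squamous epithelium, fatty acids released from triglyceride are used for barrier lipids, and the co-activator encoded by *Abhd5* is known for the skin disease that follows its loss.

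The *Klf4* probe set itself read 9.75, 10.15 and 10.06 on the control-labelled arrays and 10.28, 10.50 and 10.28 on the mutant-labelled arrays, so it was not lower in the mutants. The sources used here do not say whether its probes lie in the part that Cre removes, and a probe outside that part checks nothing. Directions below therefore rest on the labels. In limma, 207 of the 19938 genes (1.04%) had an adjusted p under 0.05; 73 of them (0.366%) rose and 134 (0.672%) fell. Fibroblast and smooth muscle markers had median differences of -1.19 and -0.85 between mutant-labelled and control-labelled arrays, and their values are given further down. The RNA thus came from a mix of cell types, in which fewer cells of a type and less RNA per cell cannot be told apart.

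Of the 10 genes, 4 passed the test, where 1.04% of all genes did: *Plin2*, *Hilpda* and *Gpat4* rose and *Pnpla3* fell. The other 6 did not pass. Since the genes were chosen with this contrast known, nothing is read from that share. Groups did not overlap for 5 of the 10, the 4 above and *Dgat2*, and for 18.1% of all genes. The median difference of the 10 was -0.024, against 0.022 over all genes, with 5 differences above 0 and 5 below. Across the 6 arrays the lowest single value of any of the 10 was 4.83 and the highest was 11.88, and no group mean lay under 4.72, the 40th percentile of gene means that is used here as the limit for dim genes.

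**Figure D1:**
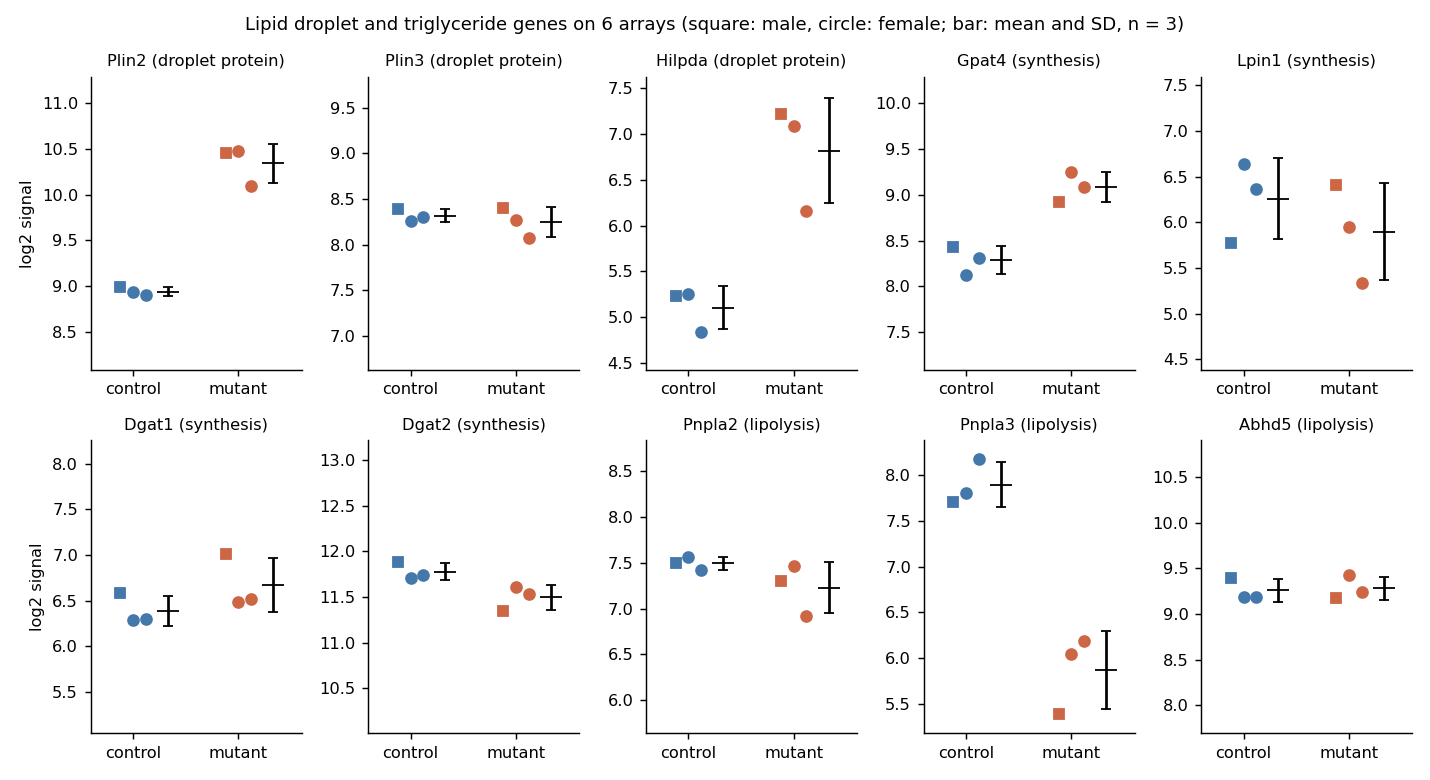
Log2 signal of each of the 10 genes on each array (vertical axis, all panels spanning the same range of log2 units), for 3 control-labelled arrays and 3 labelled mutant, with the mean and SD beside the points. *Plin2*, *Hilpda* and *Gpat4* were higher and *Pnpla3* was lower on every mutant-labelled array than on any control-labelled one; of the remaining 6, *Dgat2* alone had groups that did not overlap.

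Of the droplet proteins, *Plin2* and *Hilpda* rose and *Plin3* did not pass. *Plin2* encodes perilipin 2, the coat protein that is stabilized by droplets and marks them in most cell types. It read 8.99, 8.93 and 8.90 on the control-labelled arrays and 10.45, 10.48 and 10.10 on the mutant-labelled arrays. The groups were far apart, and the controls spanned less than the mutants. *Plin2* rose 2.64-fold, by 1.40 ± 0.12 log2 units (SE; limma adjusted p = 0.00595 over all genes). *Plin2* was 17th of all genes by p-value.

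*Hilpda* encodes a small droplet protein that inhibits the lipase made from *Pnpla2* and that is known as a gene induced by low oxygen and by fatty acids. It read 5.23, 5.25 and 4.83 on the control-labelled arrays and 7.22, 7.08 and 6.16 on the mutant-labelled arrays. Mutant replicate 3 was the lowest of the mutants but still above every control. The means were 5.10 ± 0.24 and 6.82 ± 0.58 (SD, n = 3 each), a 3.29-fold rise of 1.72 ± 0.27 (SE; limma adjusted p = 0.0370). The call was lost without control 1, 2 or 3 and without mutant 1 or 2 (adjusted p between 0.0636 and 0.160 in limma), while the difference stayed between 1.52 and 2.05 when any array was left out. In the 4 females alone it was 1.58 ± 0.32 (adjusted p = 0.142).

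*Plin3* encodes perilipin 3, a coat protein that is present in the cytosol and moves onto new droplets. Its values were 8.39, 8.26 and 8.31 on the control-labelled arrays and 8.40, 8.27 and 8.07 on the mutant-labelled arrays. The groups overlapped, and replicates 1 and 2 of each genotype were almost level with each other. The difference was -0.071 ± 0.113 (SE; limma adjusted p = 0.866), with a 95% interval from -0.33 to 0.19, which lies below the interval of *Plin2*, 1.11 to 1.69.

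The start regions of the members were searched for the short cores of known regulatory sites. The RefSeq promoter table (GRCm38.p6) gives 300 bases per annotated start, 250 before and 50 after it, and it held 7 of the 10 genes in 8 windows: *Plin2*, *Plin3*, *Hilpda* with a pair of starts, *Lpin1*, *Pnpla2*, *Pnpla3* and *Abhd5*. The core of the hypoxia response element, ACGTG, was searched on both strands (CACGT on the other), as was the CACCC core of Kruppel-like factor sites (GGGTG on the other). Stretches are printed for genes that passed the test, and the CACCC matches of *Plin3*, *Pnpla2* and *Lpin1*, which did not pass, are not printed. Each stretch below is 30 bases on the strand of the gene, 5′ to 3′, with the match in capitals.
Plin2, chr4:86670045-86670074, minus strand: agctgggctatcACGTGgctcggaggcttg
Hilpda, chr6:29272571-29272600, plus strand: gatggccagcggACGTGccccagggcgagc
Pnpla3, chr15:84167764-84167793, plus strand: ctcagctgacgtCACCCgaagacagcttag
The *Plin2* match lies across the annotated start, and since its letters read CACGTG it matches on both strands. The *Hilpda* match begins at position -43 of its downstream start, and the *Pnpla3* match at position -40. ACGTG was found for 2 of the 7 genes, *Plin2* and *Hilpda*, in 2 of their 8 windows, and in 19.6% of all 32851 windows. CACCC was found for 4 of the 7, *Pnpla3*, *Pnpla2*, *Plin3* and *Lpin1*, in 4 of the 8 windows, and in 57.5% of all windows. These matches describe letters in these windows and say nothing about binding.

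Among the synthesis genes, 1 of 4 rose and 3 did not pass. *Gpat4* encodes the acyltransferase of the endoplasmic reticulum that adds the first fatty acid and that relocates to growing droplets. It read 8.43, 8.13 and 8.31 on the control-labelled arrays and 8.92, 9.25 and 9.08 on the mutant-labelled arrays. The gap between the highest control and the lowest mutant, both males, was smaller than the gaps for *Plin2* or *Hilpda*. The rise was 1.74-fold, 0.80 ± 0.13 on the log2 scale (SE; limma adjusted p = 0.0360). It did not pass without control 2 or 3 or without any one of the mutants (adjusted p between 0.0639 and 0.156 in limma), with differences between 0.72 and 0.88 over the arrays left out. It did not pass with sex as a covariate either (adjusted p = 0.0625), nor in the females alone (0.95 ± 0.14, adjusted p = 0.0706).

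*Dgat1* and *Dgat2* encode unrelated enzymes for the same last step, *Dgat2* being the one tied to newly made fatty acids and to the droplet surface. *Dgat1* read 6.58, 6.29 and 6.30 on the control-labelled arrays and 7.01, 6.48 and 6.51 on the mutant-labelled arrays. Male control 1 lay above both female mutants, so the groups overlapped, and the difference was 0.28 ± 0.17 (SE; limma adjusted p = 0.575; 95% interval -0.10 to 0.67). *Dgat2* read 11.88, 11.71 and 11.74 against 11.35, 11.61 and 11.53. Every mutant was lower than every control, by a small amount, and the difference of -0.28 ± 0.11 did not pass (SE; limma adjusted p = 0.349; 95% interval -0.53 to -0.025).

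*Lpin1* encodes lipin 1, the phosphatase that makes diacylglycerol and that is most abundant in muscle and fat. It read 5.78, 6.64 and 6.37 on the control-labelled arrays and 6.41, 5.95 and 5.34 on the mutant-labelled arrays, and its difference was -0.36 ± 0.30 (SE; limma adjusted p = 0.714; 95% interval -1.07 to 0.34). The difference was 0.63 between the 2 males, 1 per genotype and so with no spread of its own, and -0.86 in the females. The sexes thus differed by 1.49 ± 0.40 (SE; limma interaction, adjusted p = 0.602), with an error that rests on the females and on the moderation across genes. The interaction passed for 0.0451% of all genes and for none of the 10; unadjusted, it was under 0.05 for 5.82% of all genes and, of the 10, for *Lpin1*. The mean of 11 skeletal muscle markers was 5.94, 10.40 and 9.45 on the control-labelled arrays and 8.92, 8.49 and 6.13 on the mutant-labelled arrays. *Lpin1* was highest on control 2, where that mean was also highest, and its 2 lowest values were on the arrays with the 2 lowest means, mutant 3 and control 1. The part of muscle RNA in the *Lpin1* values was not tested.

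In the lipolysis group, *Pnpla3* fell and the other two did not pass. *Pnpla3* encodes adiponutrin, a droplet protein related to the main triglyceride lipase, which binds the *Abhd5* product and is induced by feeding and lipid synthesis in liver and fat. It read 7.71, 7.81 and 8.17 on the control-labelled arrays and 5.39, 6.04 and 6.19 on the mutant-labelled arrays. The groups lay more than 1 log2 unit apart, with the male mutant the lowest. The means were 7.90 ± 0.25 and 5.87 ± 0.43 (SD, n = 3 each), a drop of -2.02 ± 0.22 on the log2 scale (SE; limma adjusted p = 0.0118), so the controls were 4.07-fold higher. It was the gene with the largest difference in size among the 10. The call was lost without control 3 (-1.89 ± 0.24, adjusted p = 0.0582 in limma) and kept without any other single array.

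*Pnpla2* encodes adipose triglyceride lipase, which takes the first fatty acid off triglyceride, and *Abhd5* encodes the protein that activates it. *Pnpla2* read 7.50, 7.56 and 7.42 on the control-labelled arrays and 7.30, 7.46 and 6.92 on the mutant-labelled arrays. Mutant 2 lay within the controls, and mutant 3 was the lowest of all. The difference was -0.27 ± 0.15 (SE; limma adjusted p = 0.540; 95% interval -0.61 to 0.077). *Abhd5* read 9.40, 9.19 and 9.18 against 9.17, 9.42 and 9.24, with the groups fully mixed and a difference of 0.022 ± 0.112 (SE; limma adjusted p = 0.961; 95% interval -0.24 to 0.28). These intervals hold no change as large as that of *Pnpla3*.

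The 4 genes that passed also kept their direction under all 16 alternatives tried, but most of these could not turn it. Leaving out dim genes, averaging probe sets, a replicate block, sex as a covariate and an intensity trend left the difference itself unchanged. Since the groups of these genes did not overlap, no subset or weighting of arrays could turn it either. Only quantile normalization, median centring and the marker covariate described next could. *Plin2* passed in 15 of the 16, *Pnpla3* in 14, *Hilpda* in 9 and *Gpat4* in 7. The alternative in which none of the 4 passed took the mean of fibroblast and smooth muscle markers per array as a covariate. With it the differences were 1.56 ± 0.30 for *Plin2*, 2.13 ± 0.64 for *Hilpda*, 0.67 ± 0.31 for *Gpat4* and -1.78 ± 0.53 for *Pnpla3* (SE; limma adjusted p between 0.479 and 0.876). That mean, relative to all 6 arrays, was 0.12 to 0.77 on the control-labelled arrays and -0.69 to -0.23 on the mutant-labelled arrays, so it separates the groups and leaves little to estimate the genotype from.

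**Figure D2:**
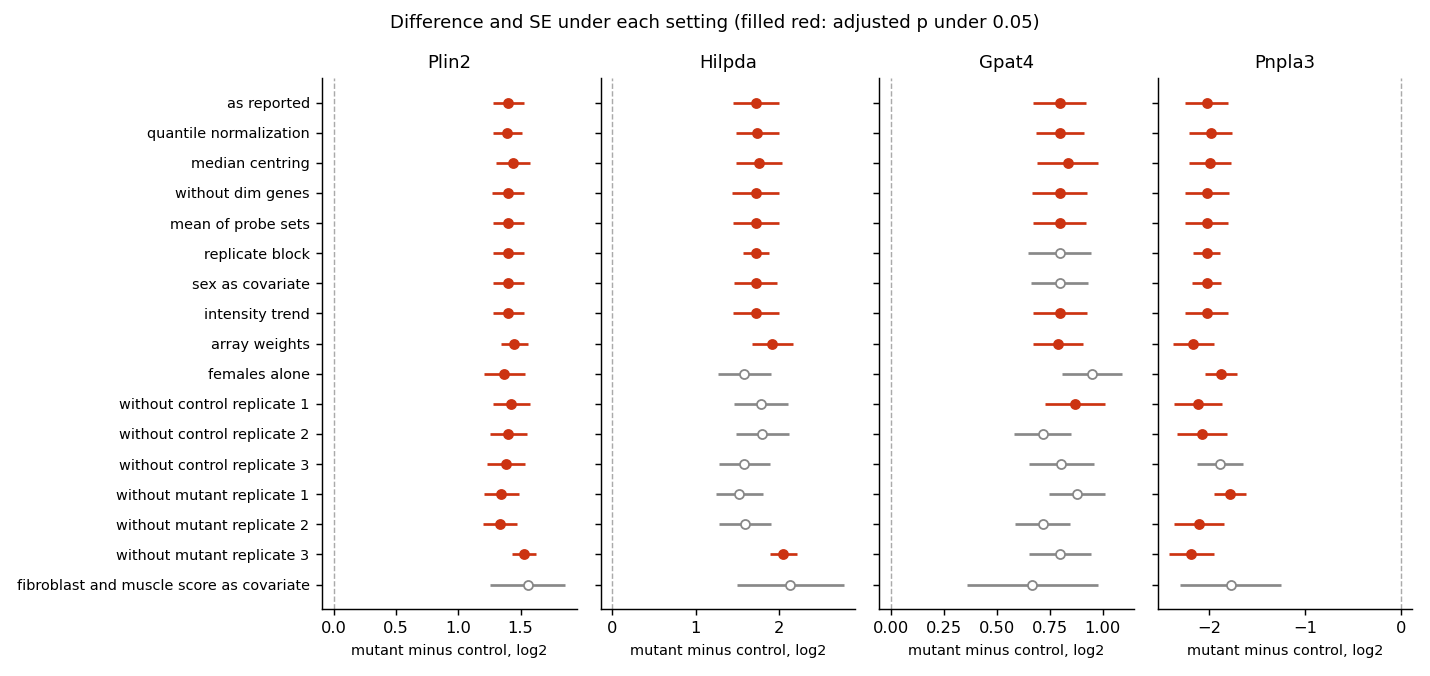
Difference between mutant-labelled and control-labelled arrays in log2 units, with its SE (horizontal axis), for *Plin2*, *Hilpda*, *Gpat4* and *Pnpla3* under the reported setting and 16 alternatives (vertical axis), with filled red points where the limma adjusted p was under 0.05. The points stay on one side of 0 for each gene, which most of the alternatives could not change because the groups do not overlap. *Hilpda* and *Gpat4* lose the call most often.

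Other genes of the pathway, and hypoxia targets, were taken from 6 lists by function, 96 genes in all, and none passed over all genes in limma. At an unadjusted p under 0.05 in limma there were 26, which is 27.1% of them, against 12.4% of all genes. Of the 26, 8 were on the list of 14 hypoxia targets. Since the lists were chosen with earlier results of these data known, nothing is read from that share. Of 18 other droplet proteins, 10 differences were above 0 and 8 below, with a median of 0.038. *Cidea*, whose product fuses droplets and is also made in sebaceous cells, read 8.09, 7.46 and 7.62 on the control-labelled arrays and 8.34, 8.66 and 8.28 on the mutant-labelled arrays. Its groups did not overlap, with a difference of 0.71 ± 0.18 (SE; limma adjusted p = 0.150). *Spast*, encoding spastin, which tethers droplets to other organelles, differed by 0.28 ± 0.10 (limma adjusted p = 0.315). The perilipin genes *Plin1*, *Plin4* and *Plin5*, named after their values were seen, differed by -0.015 ± 0.129, -0.44 ± 0.36 and 0.029 ± 0.122, none passing.

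Of 18 other genes of glyceride and sterol ester synthesis, 10 differences were above 0 and 8 below, with a median of 0.054. *Agpat2*, whose enzyme follows GPAT in the pathway, read 7.80, 7.54 and 7.97 on the control-labelled arrays and 9.08, 8.50 and 8.51 on the mutant-labelled arrays. The groups did not overlap, and the difference of 0.92 ± 0.19 did not pass (SE; limma adjusted p = 0.0807). *Awat2*, which encodes a wax ester synthase related to DGAT2, differed by 0.94 ± 0.17 (limma adjusted p = 0.0626) from a control mean of 4.54, under the dim limit of 4.72. *Lpin2*, a relative of *Lpin1*, and *Gpam*, the mitochondrial counterpart of *Gpat4*, were named after their values were seen. They differed by 0.59 ± 0.18 and -0.50 ± 0.16 (limma adjusted p = 0.219 and 0.246), so neither paralog passed.

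Other lipolysis genes, 12 in number, had 4 differences above 0 and 8 below, with a median of -0.080. *Ces1d*, which encodes a carboxylesterase able to hydrolyse triglyceride, read 10.78, 9.87 and 10.44 on the control-labelled arrays and 8.47, 9.56 and 9.67 on the mutant-labelled arrays. All mutants were lower, though mutant 3 lay close to control 2, and the difference was -1.13 ± 0.35 (SE; limma adjusted p = 0.224). *Lipg*, encoding endothelial lipase, differed by 0.48 ± 0.15 (limma adjusted p = 0.235). The hormone-sensitive lipase gene *Lipe*, the monoglyceride lipase gene *Mgll* and the lipase inhibitor gene *G0s2*, named after their values were seen, differed by 0.15 ± 0.17, 0.33 ± 0.22 and -0.073 ± 0.149.

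None of the 14 genes of fatty acid uptake and binding passed, with 8 differences above 0, 6 below and a median of 0.060. *Fabp4*, which encodes a fatty acid carrier of fat cells, macrophages and some endothelium, read 4.81, 5.27 and 5.10 on the control-labelled arrays and 7.70, 8.33 and 6.35 on the mutant-labelled arrays. Every mutant was higher, and mutant 3 was again the lowest of them, as for *Hilpda* and *Plin2*. The difference was 2.40 ± 0.44 (SE; limma adjusted p = 0.0630), and 2.96 without mutant 3, where it passed (adjusted p = 0.00880). The epidermal carrier gene *Fabp5* read 12.10, 12.07 and 12.17 against 12.69, 12.66 and 12.55. Its difference was 0.52 ± 0.093, just outside the threshold (SE; limma adjusted p = 0.0533), and it passed in 5 of 16 alternatives. *Cd36*, encoding a fatty acid receptor and named after its values were seen, read 8.49, 8.56 and 8.18 against 7.27, 7.76 and 6.49, a difference of -1.24 ± 0.29 (limma adjusted p = 0.120).

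**Figure D3:**
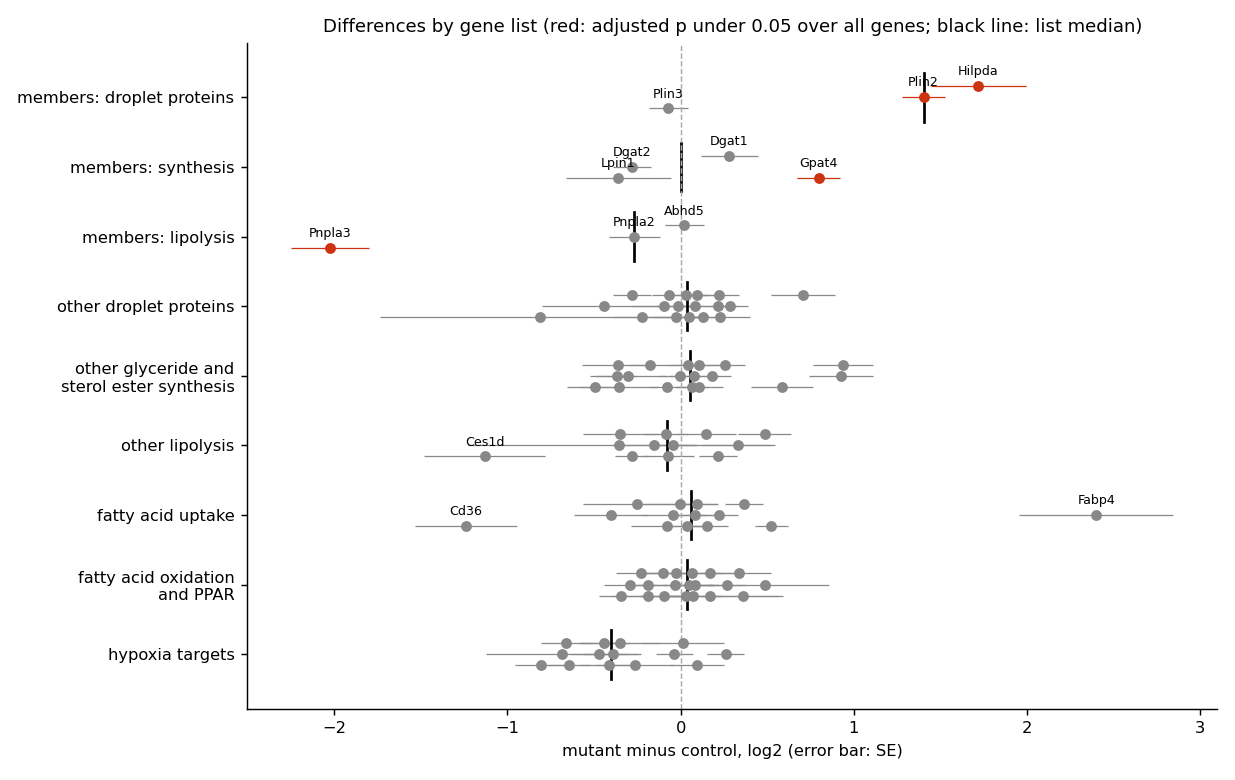
Difference between mutant-labelled and control-labelled arrays in log2 units with its SE (horizontal axis) for the 10 genes by role and for 6 lists of related genes (vertical axis), red where the limma adjusted p over all genes was under 0.05 and with a black line at each list's median. The 4 red points are *Plin2*, *Hilpda*, *Gpat4* and *Pnpla3*; *Fabp4*, *Cd36* and *Ces1d* lie beyond 1 log2 unit without passing.

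*Plin2* and *Hilpda* are known targets of the fatty acid receptors of the PPAR family, and *Hilpda* of the hypoxia response. On the list of fatty acid oxidation and PPAR genes, 11 of 20 differences were above 0 and 9 below, with a median of 0.039 and 2 genes at an unadjusted p under 0.05. The receptor gene *Ppard* differed by 0.27 ± 0.11 (limma adjusted p = 0.378) and the carnitine transferase gene *Cpt1c* by -0.34 ± 0.13 (limma adjusted p = 0.315). The PPAR targets *Pdk4*, *Angptl4* and *Cpt1a*, named after their values were seen, differed by 0.49 ± 0.37, -0.026 ± 0.216 and 0.074 ± 0.164, none passing. Of 14 hypoxia targets, 11 differences were below 0 and 3 above, with a median of -0.40, 8 at an unadjusted p under 0.05 and none past the threshold in limma. The oxygen sensor gene *Egln3* and the collagen hydroxylase gene *P4ha1* differed by -0.80 ± 0.15 and -0.65 ± 0.12 (limma adjusted p = 0.0693 and 0.0662). Whether PPAR or hypoxia signalling had a part in the differences of *Plin2* and *Hilpda* was not tested. With the fibroblast and smooth muscle mean as a covariate, the medians of the oxidation and hypoxia lists were 0.33 and 0.041. In that fit *Egln3* and *P4ha1* differed by -1.12 ± 0.35 and -0.72 ± 0.30 (SE), neither passing. That covariate separates the groups and leaves little to estimate the genotype from, so these medians are not read as adjusted results. The median of the skeletal muscle markers moved from -0.74 to 5.33 in the same fit.

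Markers of other cells were set beside these values. The epithelium's own markers were bright on every array, with list means from 11.52 to 11.64 on the control-labelled arrays and from 11.63 to 11.82 on the mutant-labelled arrays. Of 9 adipocyte markers, 5 had both group means under the dim limit; the defining marker *Adipoq* read between 2.83 and 3.16 on all 6 arrays, and *Fabp4* was the one marker whose groups did not overlap. The adipocyte list mean was 4.46 to 4.64 on the control-labelled arrays and 4.79 to 4.88 on the mutant-labelled arrays, a mean that includes *Fabp4*, while the median difference of the 9 was 0.016. Of 10 macrophage markers, *Cd68*, encoding a lysosomal glycoprotein, rose by 1.11 ± 0.17 (limma adjusted p = 0.0304), while 6 of the 10 differences were below 0, and the list means overlapped, 5.46 to 5.78 against 5.43 to 5.85. *Cd68* did not pass in 8 of 16 alternatives.

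All 11 fibroblast markers were lower on the mutant-labelled arrays. *Col1a2*, *Sparc* and *Thy1* fell by 1.30 ± 0.19, 1.10 ± 0.17 and 0.58 ± 0.10 (SE; limma adjusted p = 0.0273, 0.0312 and 0.0479), and passed in 10, 9 and 3 of 16 alternatives. The list mean was 8.11 to 8.87 on the control-labelled arrays and 7.40 to 7.66 on the mutant-labelled arrays. All 8 smooth muscle markers were lower too, none passing, with *Tagln* at -0.89 ± 0.17 and *Cnn1* at -1.09 ± 0.21 (limma adjusted p = 0.0717 and 0.0758). The part of stroma in the differences of the 10 genes was not tested beyond the covariate above. Endothelial and gastric or glandular markers did not pass on any gene, with medians of -0.015 and -0.088.

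**Figure D4:**
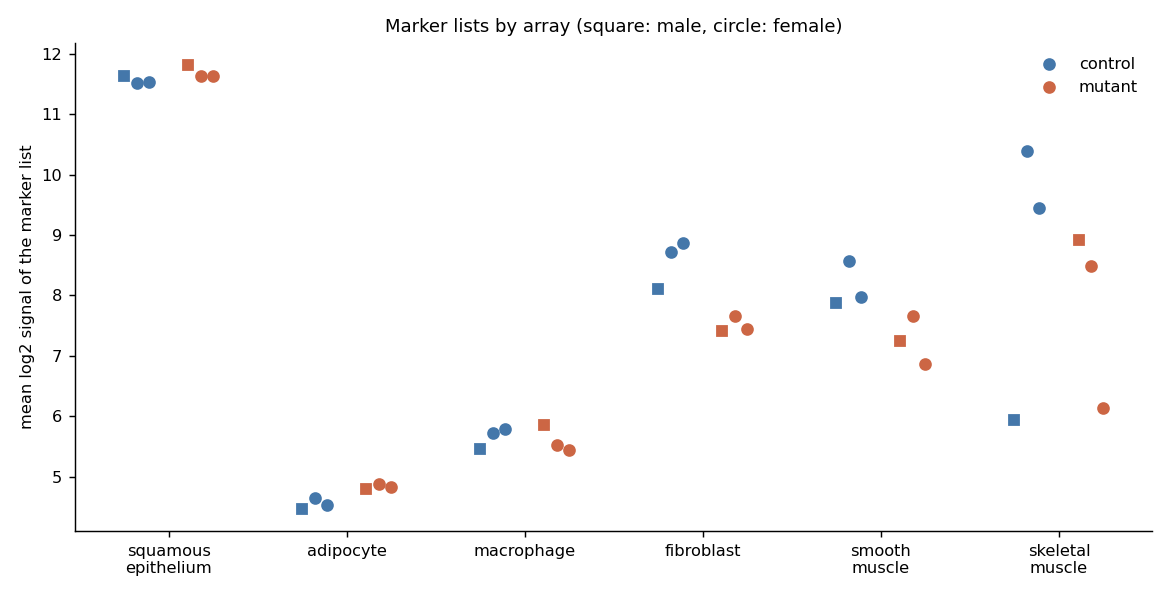
Mean log2 signal of each marker list on each array (vertical axis), for 3 control-labelled arrays and 3 labelled mutant, squares for males and circles for females. Squamous markers stay between 11.52 and 11.82, adipocyte markers stay below 4.9, fibroblast and smooth muscle means are lower on every mutant-labelled array, and skeletal muscle means range from 5.94 to 10.40.

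The genes most like the 3 members with the smallest p-values were found by the root mean square difference of values centred on the gene mean over the 6 arrays. For *Plin2* these were *Cadps2*, *Arrdc3* and *Atp13a4*, at 0.094, 0.101 and 0.101 log2 units, with differences of 1.47 ± 0.10, 1.24 ± 0.11 and 1.29 ± 0.11 (SE). For *Pnpla3* they were *Dnase1l2*, *Nlrp10* and *AU021092*, at 0.19, 0.25 and 0.26, with differences of -1.81, -1.99 and -2.22. For *Gpat4* they were *Map3k5*, *F8a* and *Atrn*, at 0.042, 0.101 and 0.102. The match of *Map3k5* was the closest of these 9 in log2 units, although its own difference, 0.77 ± 0.14, did not pass (limma adjusted p = 0.0638). These distances are not scaled to how much a gene varies, so they do not rank likeness between members. Similar differences follow from the way these genes were picked and are not a result. *Hilpda* is outside this rule, which stops at 3 members.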

How the data were processed

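The deposited table holds log2 signals for 28853 probe sets on 6 arrays, made by the authors from 100 ng of total RNA per animal, per the labels' protocols. Per the submitters' processing notes, Partek 6.4 was used; the sources used here do not give its background correction or normalization, which set how far dim genes are compressed. That the scale is log2 follows from the range of values (array medians 5.01 to 5.13, maxima 13.99 to 14.67). A single gene was named by 21789 probe sets, with symbols of GRCm38.p6, and the probe set of highest mean was kept per gene. Of 191 list entries, 179 matched.

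The test was two-sided in limma 3.58.1 (R 4.3.3; lmFit and eBayes with genotype as the single term; 7.58 degrees of freedom after moderation), with Benjamini-Hochberg adjustment over 19938 genes. Errors and 95% intervals use the moderated SE. A permutation test of 3 against 3 cannot go below 0.1 and was not used. Arrays of 19938 genes were also simulated, with independent normal noise per gene at its moderated SD. True differences of 0.5, 1, 2 and 3 log2 units were called in 12%, 88%, 100% and 98% of genes given them. Of 159 calls, 10 were false. The simulation holds no variation shared between genes, such as that of the muscle markers, so these rates need not hold for the real arrays. Named genes are the 10 members, *Klf4*, up to 4 passing genes per list (or the 2 with the smallest p) and 3 genes like each of 3 members. The members and lists were chosen with earlier results of these data known. Plots used matplotlib 3.10.9.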

Additional observations from a re-analysis of the deposited data

How the results depend on the processing

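The number of arrays limits every value, and how far dim genes are compressed is not known. Of the 10 genes, 3 rose and 1 fell; leaving out 1 array gave 1 to 2 that rose and 0 to 1 that fell. Without control 2, control 3, mutant 1 or mutant 2, *Plin2* was the 1 gene that still rose, and without control 3 *Pnpla3* did not pass. The females alone gave 1 that rose, and the fibroblast and muscle score as a covariate gave 0 that rose and 0 that fell. Over all genes, 73 rose and 134 fell; the counts were 23 to 55 and 21 to 138 with 1 array left out (lowest without control 3), 28 and 55 in the females alone, 131 and 239 with array weights, and 3 and 0 with the score. In the pathway lists, where 0 passed, 1 rose under quantile normalization, without dim genes and with the mean of probe sets (*Fabp5* each time). With an intensity trend and with array weights, 2 rose (*Fabp4*, *Fabp5*) and 1 fell (*Egln3*). With 1 array left out, 0 to 1 rose and 0 to 1 fell. The array weights were uneven, 2.685 for control 3 and 0.62 to 1.01 for the other arrays, so counts under them lean on control 3. The cause of these shifts was not tested.

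The labels do not say whether a replicate number marks a litter. Same-numbered arrays correlated at -0.17, 0.090 and -0.10 in their deviations from the group means. Arrays with different numbers ranged from -0.27 to 0.31, so these correlations cannot decide whether the animals were paired. With the replicate number as a block, 35 genes rose and 46 fell over all genes, and *Gpat4* was no longer past the threshold (limma adjusted p = 0.115), while *Plin2*, *Hilpda* and *Pnpla3* were. *Lpin1*, *Dgat1*, *Pnpla2* and *Plin3*, none past the threshold, each turned sign in 1 of 16 alternatives, and *Abhd5* in 4.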
